A study of Homo sapiens with 6 samples.

Results

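Integrins and laminins form the 2 gene families described here, and their mRNA levels were followed in HCT116 cells after oxaliplatin. The families were chosen with earlier results of these data known, and the members within them by gene symbol alone. They are the rows of the deposited count table named for an integrin alpha (ITGA) or beta subunit (ITGB1 to ITGB8). Rows named for a laminin alpha, beta or gamma chain (LAMA, LAMB and LAMC) are the others. Described here are 37 such genes of 27942 in the table, 26 integrins and 11 laminins, of which 26 had enough counts to be tested.

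HCT116 is an established human colorectal carcinoma line, so all 6 libraries come from 1 line and 1 genotype. Cells were grown for 24 h with 0.5 µM oxaliplatin, a platinum compound that forms DNA adducts (OXA, 3 libraries), or without treatment (NT, 3 libraries). Polyadenylated RNA was sequenced from stranded libraries, and the count totals lay between 32979521 and 40967880 per library. The labels call the libraries replicates and do not say whether they came from separate cultures, so p-values measure the spread between these libraries, which may be technical. EPCAM, CDH1, KRT8 and KRT18, markers of epithelial cells, were present throughout. KRT20, another epithelial marker, was low, with 26 to 61 counts in a library, fewer than the leukocyte marker CD68 (152 to 237). The 5 epithelial markers together had 69249 to 91974 counts in NT and 93674 to 113125 in OXA. Apart from CD68, COL1A1 and VWF, markers of other cell types had at most 18 counts in a library. The sums were 160 to 211 and 184 to 240 for 5 leukocyte markers, 112 to 283 and 195 to 273 for 5 fibroblast markers, and 31 to 36 and 18 to 48 for 4 endothelial markers, with PTPRC, CD3E, CD14, COL1A2, DCN and LUM at 3 counts or fewer in every library.

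Laminins are secreted trimers of 1 alpha, 1 beta and 1 gamma chain that build the basement membrane under epithelia. Laminin-332, which holds the LAMA3 and LAMB3 chains, anchors epithelial cells through hemidesmosomes, and the trimer of LAMA5, LAMB1 and LAMC1 chains, laminin-511, is found widely in epithelial basement membranes. Integrins are receptors of 1 alpha and 1 beta subunit that bind this matrix outside the cell and couple it to the cytoskeleton inside. The alpha subunits encoded by ITGA3, ITGA6 and ITGA7 bind laminins with the beta subunit of ITGB1, and ITGA6 also pairs with ITGB4 in hemidesmosomes.

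The sequence before the transcription start is printed for chains whose mRNA differed between the groups and that have a window in the RefSeq promoter table (GRCh38.p14). These are LAMA3, LAMB3 and LAMC1, which rose, and LAMA2, which fell. Each line gives 250 bases, 5′ to 3′ on the strand of the gene, that end just before an annotated start, and capitals mark matches to the AP-1 motif TGANTCA on either strand. The LAMA3 window at chr18:23872770-23873019 (+ strand) lies inside the gene, 183.6 kb after its first start, at the start of the short transcript LAMA3-201.
LAMA3: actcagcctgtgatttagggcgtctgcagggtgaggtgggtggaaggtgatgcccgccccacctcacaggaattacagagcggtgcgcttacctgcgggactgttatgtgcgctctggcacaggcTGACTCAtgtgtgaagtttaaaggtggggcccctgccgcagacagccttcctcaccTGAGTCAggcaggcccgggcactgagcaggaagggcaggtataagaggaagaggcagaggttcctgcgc
The first LAMB3 window, chr1:209652426-209652675 (- strand), precedes the start of the main transcript LAMB3-201. The other window shown, chr1:209651375-209651624, lies 1.051 kb inside the gene, 20 bases from the start of LAMB3-204.
LAMB3 main start: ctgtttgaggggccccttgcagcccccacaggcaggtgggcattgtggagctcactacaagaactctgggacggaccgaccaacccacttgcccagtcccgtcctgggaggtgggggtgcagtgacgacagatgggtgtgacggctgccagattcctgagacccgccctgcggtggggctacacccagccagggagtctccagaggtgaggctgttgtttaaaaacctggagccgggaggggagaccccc
LAMB3 inner start: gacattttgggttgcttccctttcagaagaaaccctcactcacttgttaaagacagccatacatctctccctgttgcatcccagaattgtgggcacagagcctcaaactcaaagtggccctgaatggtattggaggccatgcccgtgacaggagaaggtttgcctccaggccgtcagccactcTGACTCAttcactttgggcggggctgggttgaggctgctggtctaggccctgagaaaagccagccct
The LAMC1 window is chr1:183023170-183023419 (+ strand) and that of LAMA2 is chr6:128882888-128883137 (+ strand), both before the start of the main transcript.
LAMC1: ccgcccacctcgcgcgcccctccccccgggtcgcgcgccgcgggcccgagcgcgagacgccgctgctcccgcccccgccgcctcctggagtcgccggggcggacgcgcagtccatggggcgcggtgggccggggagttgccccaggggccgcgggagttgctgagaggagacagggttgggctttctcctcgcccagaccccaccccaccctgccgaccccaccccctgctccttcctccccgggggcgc
LAMA2: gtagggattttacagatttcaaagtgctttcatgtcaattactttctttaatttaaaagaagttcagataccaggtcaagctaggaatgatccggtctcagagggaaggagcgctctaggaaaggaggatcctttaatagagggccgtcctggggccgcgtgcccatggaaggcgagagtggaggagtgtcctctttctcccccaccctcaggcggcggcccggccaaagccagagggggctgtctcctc

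Of the 15 members described with full values, 11 had a window, 17 windows in all, and ITGA3, ITGA7, ITGB4 and ITGA9 had none in the table. The AP-1 letters were found in 2 of the 17 windows, in LAMA3 at 125 and 69 bases before the start and in the inner LAMB3 window at 67 bases before it. Among all 35116 windows of the table, 6.57% held them. The letters GGAATG, the core bound by TEAD factors, stood in 2 windows, 1 of ITGB1 and that of LAMA2, against 11.9% of all windows. The GC box GGGCGG stood in 13 of the 17 (42.6% of all windows) and the TATA box TATAAA in 2, of ITGA6 and ITGB1 (10.7% of all). No window held a p53 half-site, which 5.57% of all windows did. Both strands were searched for every motif, matches could overlap, and a match describes letters and not binding.

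Among the 26 members tested, 3 had a higher level in OXA by edgeR's quasi-likelihood test at an adjusted p under 0.05 (11.5%, against 2.78% of the 13727 genes tested), and 1 had a lower level (3.85%, against 2.29% of all genes tested). These shares are no independent test, as the families were chosen with earlier results of these data known. All 4 members called were laminin chains. LAMA3, LAMB3 and LAMC1 rose and LAMA2 fell, out of 9 laminin chains tested. None of the 17 integrins tested passed this test, and 4 (23.5%) had an unadjusted p under 0.05, against 2980 (21.7%) of all genes tested. DESeq2 called 4 members higher, against 4.64% of all genes, and 2 lower, against 4.41%, the additional calls being the integrins ITGA3 and ITGA9. With the gene-specific factors of the authors, edgeR called 4 members higher (against 1.76% of all genes) and 0 lower (against 1.46%). limma-voom called the same numbers as the main edgeR test, 3 higher and 1 lower, against 2.73% and 2.11% of all genes. The median log2 fold change (OXA over NT) was 0.0086 over the members, against 0.023 over all genes tested, with 0.075 over the laminins and -0.13 over the integrins.

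Libraries that carry the same number in NT and OXA departed from their group means in like ways, so the comparison was also fitted with that number as a block. With the replicate block, 5 members were called higher (19.2%, against 12.1% of all genes) and 4 lower (15.4%, against 10.9%). The members added were ITGA3 and ITGA6 on the higher side and LAMB1, ITGA2 and ITGA9 on the lower side. These 9 were also the tested members whose libraries did not overlap between the groups, 5 higher (against 14.5% of all genes) and 4 lower (against 14.4%). In bulk RNA, fewer cells that express a gene and less mRNA of it per cell cannot be told apart.

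**Figure D1:**
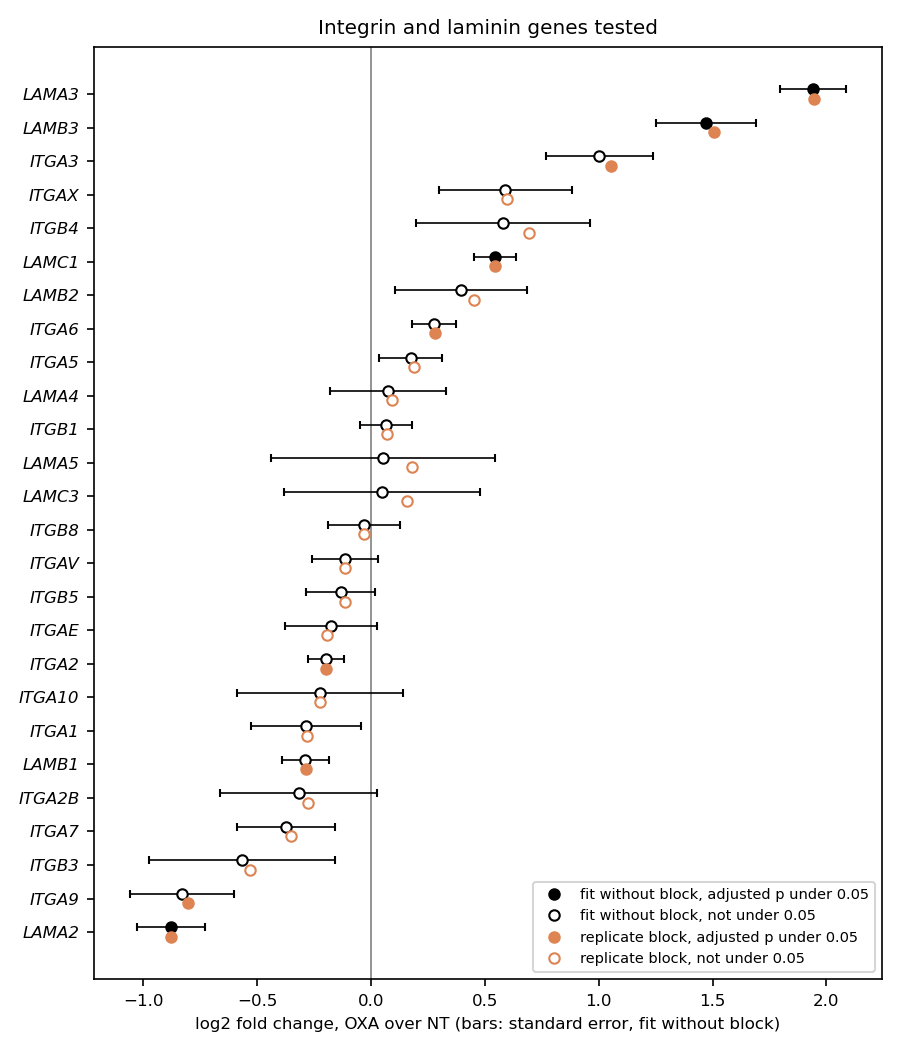
Log2 fold change (OXA over NT, horizontal axis) of the 26 members tested, ordered by size, with standard errors from the fit without a block. Filled points have an edgeR adjusted p under 0.05 without the block (black, 4 members) or with the replicate number as a block (orange, 9 members). LAMA3 lies at 1.94 and LAMA2 at -0.88.

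LAMA3 encodes the alpha chain of laminin-332 (Ensembl ENSG00000053747, chromosome 18, 23689453 to 23956222, + strand, 75 exons in the canonical transcript). It had 269.9, 247.3 and 334.9 normalized counts in NT libraries 1 to 3, and 1158, 1004 and 1114 in OXA libraries 1 to 3. Every OXA library was thus far above every NT library. The fold between libraries of the same number was 4.29, 4.06 and 3.33, and the log2 fold change of 1.94 (SE, the standard error, 0.15, edgeR adjusted p = 0.00170) was the largest rise among the members. The call held without any single library, with edgeR adjusted p between 0.000405 and 0.0168.

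LAMB3 encodes the beta chain of the same trimer (ENSG00000196878, chromosome 1, 209614870 to 209652425, - strand, 23 exons). Its values were 467, 828 and 814 normalized counts in NT and 1733, 2178 and 1941 in OXA. NT library 1 was the lowest by a wide margin, and the groups did not overlap. The fold was 3.71, 2.63 and 2.39 by library number, with a log2 fold change of 1.47 (SE 0.22, edgeR adjusted p = 0.0130). Without NT library 1 the log2 fold change was 1.25 at an adjusted p of 0.000743. The call was lost without NT library 3, or without OXA library 1, 2 or 3 (edgeR adjusted p between 0.0511 and 0.0675).

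**Figure D2:**
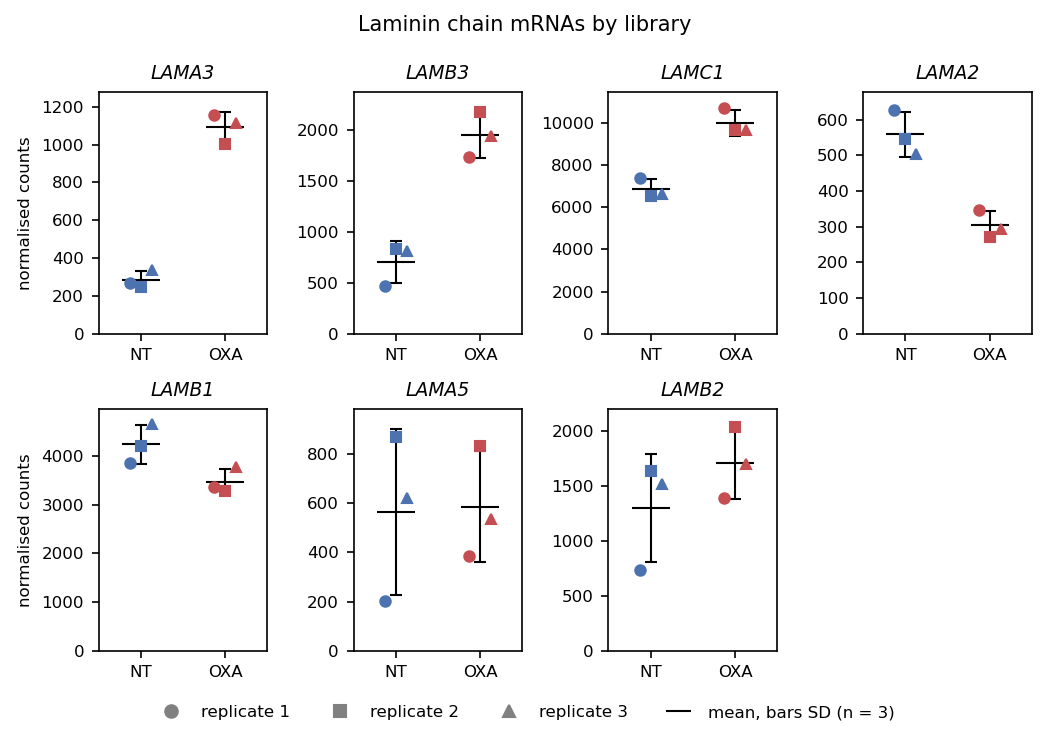
Normalized counts (vertical axes, each from 0) of 7 laminin chain genes in the 3 NT and 3 OXA libraries, with symbols for the replicate number and horizontal lines and bars for mean and SD (n = 3). LAMA3, LAMB3 and LAMC1 are higher in every OXA library than in any NT library, LAMA2 and LAMB1 lower, and LAMA5 and LAMB2 overlap.

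LAMC1 encodes a gamma chain found in most laminins, laminin-511 among them (ENSG00000135862, chromosome 1, 183023420 to 183145592, + strand, 28 exons). Its 7405, 6552 and 6649 normalized counts in NT stood against 10719, 9654 and 9666 in OXA, and the fold was close to the same for each library number (1.45, 1.47 and 1.45). The log2 fold change was 0.54 (SE 0.091, edgeR adjusted p = 0.0206). It passed without NT library 1 and missed the threshold without any other single library (edgeR adjusted p between 0.0652 and 0.116).

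The other chains of laminin-511 did not rise. LAMB1, the beta chain, had 3856, 4204 and 4659 normalized counts in NT and 3357, 3289 and 3764 in OXA, so that its OXA libraries were all below its NT libraries. Its log2 fold change of -0.29 (SE 0.10) missed the threshold without the block (edgeR adjusted p = 0.155) and passed it with the replicate block (edgeR adjusted p = 0.0186). LAMB1 overlaps DLD, a gene with more counts in these libraries, on the opposite strand. LAMA5, the alpha chain, ran from 200.4 to 869.8 normalized counts in NT (200.4, 869.8 and 623.3) and from 387 to 832 in OXA (387, 832 and 538). The spread within each group was larger than the difference between them (log2 fold change 0.05, SE 0.49, edgeR adjusted p = 0.967), and the sign turned without NT library 1, to -0.35. LAMA5 overlaps ADRM1 on the opposite strand.

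LAMA2, best known as the laminin alpha chain of muscle basement membranes, was the member that fell (ENSG00000196569, chromosome 6, 128883138 to 129516566, + strand, 65 exons). It had 628, 545 and 505 normalized counts in NT and 347, 270.4 and 295 in OXA, and all OXA libraries lay below all NT libraries. The ratio by library number was 0.553, 0.497 and 0.584, for a log2 fold change of -0.88 (SE 0.15, edgeR adjusted p = 0.0211). The call was lost with the gene-specific factors of the authors (log2 fold change -0.68, edgeR adjusted p = 0.289), and without any single library other than NT library 1 (edgeR adjusted p between 0.0511 and 0.103).

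LAMB2, a beta chain that replaces that of LAMB1 in some laminins, had 734, 1639 and 1520.4 normalized counts in NT and 1389, 2033 and 1700.03 in OXA. The groups overlapped, with NT library 1 far below the rest, and the log2 fold change was 0.40 (SE 0.29, edgeR adjusted p = 0.486). LAMC3 (0.05) and LAMA4 (0.08) had log2 fold changes near 0 and were not called. Counts of LAMA1, an alpha chain of embryonic basement membranes, did not pass the count filter, at 0, 0 and 2 reads in NT and 6, 3 and 4 in OXA. LAMB4 had 0 in all libraries, which allows up to 3 counts in each by counting error.

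Levels of different genes were compared per length, as normalized counts per kilobase of the canonical transcript. By this level LAMC1 stood at 866 ± 58.9 in NT and 1263 ± 77.1 in OXA (mean ± SD, n = 3), and LAMB1 at 750.4 ± 71.3 and 614 ± 45.4. The order of the other beta chains was LAMB2 (228 ± 86.4) before LAMB3 (175 ± 50.9) in NT, with overlapping SD ranges, and LAMB3 (486 ± 55.5) before LAMB2 (300.0 ± 56.6) in OXA. Alpha chains were less abundant than these. LAMA2 (57.6 ± 6.47), LAMA5 (49.4 ± 29.6) and LAMA3 (26.7 ± 4.27) were the most abundant of them in NT, where the SD range of LAMA5 reached the other two and those of LAMA2 and LAMA3 did not meet. With the length of its short transcript LAMA3 stood at 50.6 ± 8.10 in NT, and its range met that of LAMA2. In OXA LAMA3 stood at 102.5 ± 7.42, above LAMA5 (51.3 ± 19.8) and LAMA2 (31.4 ± 4.05).

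The make-up of the alpha and beta chain classes follows from these levels. Summed per kilobase, alpha chains went from 142 ± 22.2 in NT to 194 ± 7.52 in OXA and beta chains from 1154 ± 197 to 1400.2 ± 114. LAMA3 made up 21.5%, 14.3% and 21.6% of the alpha chain sum in NT and 57.9%, 46.6% and 54.4% in OXA. Its share was above that of LAMA2 in every OXA library and below it in every NT library at this transcript length. LAMA2 held 54.8%, 34.6% and 35.8% in NT and 19.1%, 13.8% and 15.8% in OXA, while the shares of LAMA5 overlapped between groups (33.1% ± 16.5 and 26.2% ± 9.07). LAMA3 has a long and a short transcript, and the gene counts do not separate them. With the length of the short transcript (5618 nt in place of 10651 nt) its share was 30.9% ± 5.88 in NT and 68.0% ± 5.12 in OXA. In NT library 3 it was then above the share of LAMA2 (34.4% and 30.0%), and it stayed below that share in the other NT libraries.

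Among beta chains, LAMB3 went from 12.5%, 16.7% and 15.7% of the sum in NT to 34.0%, 36.6% and 33.4% in OXA, and the share of LAMB1 went from 65.8% ± 6.97 to 44.02% ± 4.12. The shares of LAMB2 overlapped (19.3% ± 4.83 and 21.3% ± 2.52). These laminin shares, alpha and beta, rest on the same counts as the tests above and were given no test of their own. They were not corrected for GC content.

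**Figure D3:**
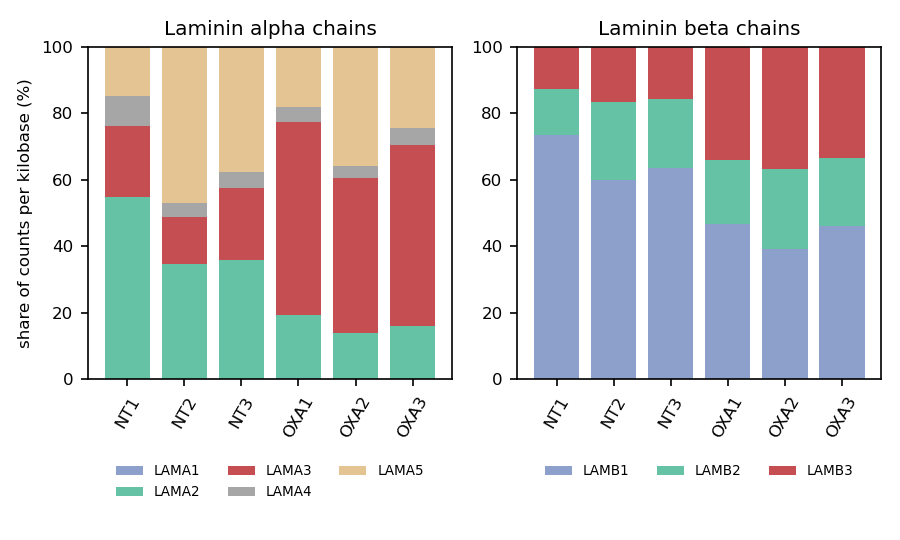
Share of each laminin chain (percent of the summed counts per kilobase of its class, vertical axes from 0 to 100) in each of the 6 libraries, one stacked bar per library. LAMA3 (red, left) takes 46.6% to 57.9% of alpha chains in OXA against 14.3% to 21.6% in NT, and LAMB3 (red, right) 33.4% to 36.6% of beta chains against 12.5% to 16.7%.

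Of the 5 laminin-binding integrin subunits, none passed edgeR's test without the block, 2 had an unadjusted p under 0.05 (40%, against 21.7% of all genes), DESeq2 called 1 higher (20%, against 4.64%) and limma-voom 0. With the block, ITGA3 and ITGA6 were called higher (40%, against 12.1%). ITGA3 encodes the alpha subunit of the receptor that binds laminin-332 and laminin-511 (ENSG00000005884, chromosome 17, 50055968 to 50090481, + strand, 26 exons). It had 5459, 10420.4 and 10060.5 normalized counts in NT and 15461, 19490.4 and 17026 in OXA, every OXA library being above every NT library. NT library 1 was far below the other NT libraries. The fold by library number was 2.83, 1.87 and 1.69, and the log2 fold change of 1.00 (SE 0.23) had an edgeR adjusted p of 0.0539 without the block and 0.00782 with it. Without NT library 1 it was 0.76 at an edgeR adjusted p of 0.00471. Without any other single library it missed the threshold (edgeR adjusted p between 0.0776 and 0.190, no block). DESeq2 gave an adjusted p of 0.000166.

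ITGA6 encodes the alpha subunit that pairs with the subunits of ITGB1 or ITGB4 (ENSG00000091409, chromosome 2, 172427354 to 172506459, + strand, 26 exons). It had 7694, 6526 and 6736 normalized counts in NT and 8772, 7895 and 8747 in OXA, without overlap. The fold by library number was 1.14, 1.21 and 1.299. The log2 fold change of 0.28 (SE 0.097) passed with the replicate block (edgeR adjusted p = 0.0209) but not without it (edgeR adjusted p = 0.149).

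ITGB4 encodes the beta subunit of hemidesmosomes (ENSG00000132470, chromosome 17, 75721328 to 75757818, + strand, 40 exons). Its values of 2641, 7955 and 7114 normalized counts in NT and 6625, 11184 and 8677 in OXA overlapped, although each OXA library was above the NT library of its number (2.51-, 1.41- and 1.22-fold). NT library 1 was again the lowest by far. The log2 fold change was 0.58 (SE 0.38, edgeR adjusted p = 0.433), and 0.69 with the replicate block (edgeR adjusted p = 0.0509).

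ITGB1, the beta partner of most integrin alpha subunits (ENSG00000150093, chromosome 10, 32887273 to 33005792, - strand, 16 exons), showed a difference smaller than the spread of its libraries. It had 28243, 23192 and 22957 normalized counts in NT and 28181, 23750.3 and 25894 in OXA, with a log2 fold change of 0.07 (SE 0.11, edgeR adjusted p = 0.797). The sign turned without NT library 2 or 3. ITGA7, a laminin-binding subunit best known in muscle, had 236, 383 and 378 normalized counts in NT and 219.6, 273 and 278 in OXA. Its groups overlapped (log2 fold change -0.37, SE 0.22, edgeR adjusted p = 0.372), and it overlaps BLOC1S1 and METTL7B, both with more counts, on the opposite strand.

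**Figure D4:**
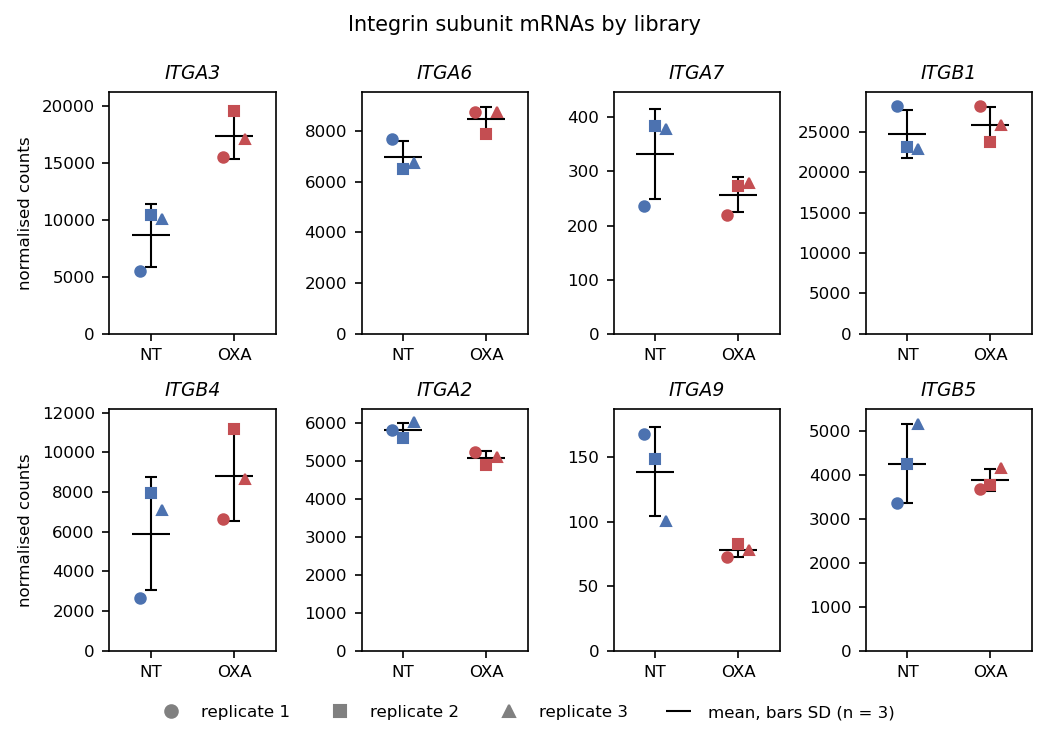
Normalized counts (vertical axes, each from 0) of 8 integrin subunit genes in the 3 NT and 3 OXA libraries, with symbols for the replicate number and lines and bars for mean and SD (n = 3). ITGA3 and ITGA6 are higher in every OXA library than in any NT library, ITGA2 and ITGA9 lower, and ITGA7, ITGB1, ITGB4 and ITGB5 overlap.

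Per kilobase, ITGB1 was the most abundant integrin mRNA in both groups, at 6639 ± 799 in NT and 6946 ± 593 in OXA. ITGA3 ranked next at 1769 ± 566 in NT and 3544 ± 415 in OXA. In NT its SD range reached those of ITGA6 (1201 ± 107) and ITGB4 (1001 ± 484) but not that of ITGB5 (959 ± 203), and in OXA it did not reach that of ITGB4 (1497 ± 387) or ITGA6 (1457 ± 85.8). Of the summed alpha subunits, ITGA3 held 24.0%, 38.2% and 35.7% in NT and 45.7%, 53.02% and 46.9% in OXA, whereas the share of ITGA6 overlapped (22.9% ± 4.83 and 20.04% ± 1.88). Among ITGA3, ITGA6 and ITGA7 alone, ITGA3 held 44.7%, 63.7% and 62.2% in NT and 66.9%, 73.7% and 68.9% in OXA. Summed beta subunits lay at 8645 ± 145 in NT and 9362 ± 200.5 in OXA, of which ITGB1 held 76.7% ± 7.89 and 74.1% ± 4.78. None of these integrin shares was corrected for GC content.

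Integrins that bind other ligands did not pass the edgeR test without the block. For collagen receptors, 3 of 4 alpha subunits were tested, 1 with an unadjusted p under 0.05 (33.3%, against 21.7% of all genes), and DESeq2 and limma-voom called 0. ITGA2, the epithelial collagen receptor subunit, had 5799, 5605 and 6005 normalized counts in NT and 5230.2, 4881 and 5086 in OXA, all OXA libraries lying below all NT libraries. The difference was small (log2 fold change -0.20, SE 0.079, edgeR adjusted p = 0.204) and was called with the replicate block (edgeR adjusted p = 0.0380). ITGA1 and ITGA10 had log2 fold changes of -0.28 and -0.22. The gene PELO lies within ITGA1 on the same strand and had more counts.

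RGD-binding integrins recognise fibronectin, vitronectin and related ligands. Of 8 members, 6 were tested, 0 had an unadjusted p under 0.05 (against 21.7% of all genes), and DESeq2 and limma-voom called 0. ITGB5, the beta subunit of a vitronectin receptor, had 3356, 4264 and 5155 normalized counts in NT and 3694, 3779 and 4173 in OXA, with overlap (log2 fold change -0.13, SE 0.15, edgeR adjusted p = 0.671), and the sign turned with the gene-specific factors of the authors, to 0.0049. The log2 fold changes were 0.17 for ITGA5, the fibronectin receptor subunit, -0.11 for ITGAV, -0.03 for ITGB8, -0.32 for ITGA2B and -0.57 for ITGB3.

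Of 9 leukocyte integrins and relatives, 3 passed the count filter and 1 had an unadjusted p under 0.05 (33.3%, against 21.7% of all genes). ITGA9, which binds tenascin and other ligands with ITGB1, had 168, 149 and 100.4 normalized counts in NT and 72.5, 82.9 and 78.4 in OXA, all OXA libraries lying below all NT libraries. Its log2 fold change of -0.83 (SE 0.23) had an edgeR adjusted p of 0.0825 without the block, 0.0381 with it and 0.0478 by DESeq2, while limma-voom called 0 of the 3. ITGAE (-0.17) and ITGAX (0.59) were not called in any of these fits. ITGAE overlaps HASPIN on the opposite strand.

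Of the 37 members, 11 did not pass the count filter. These were LAMA1 and LAMB4 and the integrins ITGA4, ITGA8, ITGA11, ITGAD, ITGAL, ITGAM, ITGB2, ITGB6 and ITGB7. None had over 17 counts in a library, and the largest values were those of ITGB7 (3, 6 and 1 in NT and 6, 6 and 17 in OXA) and ITGAM (8, 4 and 4 in NT and 12, 6 and 16 in OXA). ITGB2, the common beta subunit of leukocyte integrins, had at most 1 count. At this depth differences in these genes were not detectable.

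The base composition of the members moved with their deviations within the groups. Each library was compared with the mean of the other libraries of its group. Across the 26 members tested, which share the libraries and are not independent replicates, the deviation of NT library 1 fell with the GC content of the canonical transcript (Pearson's r -0.84, Spearman's rho -0.87), and so did that of OXA library 1 (-0.70 and -0.74). That of NT library 2 rose with it (0.84 and 0.83). So did those of OXA library 2 (0.78 and 0.80) and NT library 3 (0.63 and 0.79). OXA library 3 had -0.11 and -0.20. Within a group the deviations of a gene cancel out by construction, so a fall in 1 library forces a net rise in the others. The correlations within a group are thus not separate observations. The 9 members with a GC content over 58% were lower in NT library 1 by a median of -1.10 on the log2 scale, against 0.17 for the other members. Over all genes tested, deviations were taken from the mean of the whole group, the library itself included. This makes them smaller by construction, so the sizes printed are not on the same scale as those of the members. They too cancel out within a group. The direction was the same, and medians were -0.55 in NT library 1 and 0.36 in NT library 2. They are those of the 2735 genes of highest GC content (58.6% and above). LAMA5 (66.4%), ITGB4 (63.6%), ITGA3 (60.9%), ITGA7 (60.3%), LAMB2 (60.3%) and LAMB3 (59.5%) are among them, whereas LAMA3 (50.7%), LAMC1 (48.8%) and LAMA2 (46.5%) are not.

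When the dependence of each library on GC content and on transcript length was taken out, together with the replicate block, 8 members were higher (against 23.4% of all genes) and 5 lower (against 22.1%). ITGB4 (log2 fold change 0.50, edgeR adjusted p = 0.000256), LAMB2 (0.29, 0.00188) and ITGB1 (0.16, 0.00447) joined the higher members, and ITGA7 (-0.51, 0.00160) and ITGB5 (-0.18, 0.00960) the lower ones, while ITGA2 was no longer called (-0.10, 0.0735). The rises of LAMA3 (1.93) and LAMB3 (1.35) remained, and that of ITGA3 was 0.88 at an edgeR adjusted p of 1.81e-06. LAMA5 stayed without a call, at -0.03.

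**Figure D5:**
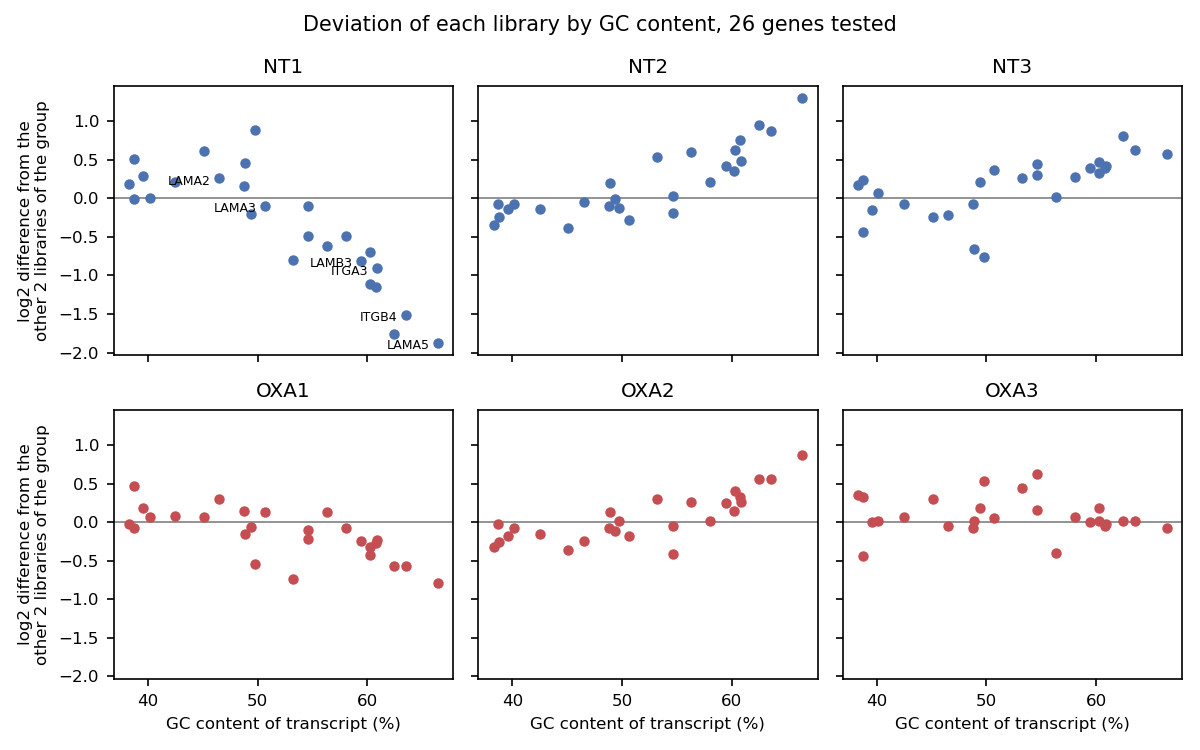
Deviation of each library from the mean of the other libraries of its group (log2, vertical axes) against the GC content of the canonical transcript (percent, horizontal axes), 1 point for each of the 26 members tested and 1 panel per library. Points of NT library 1 descend with GC content (r -0.84), down to LAMA5 at the right, and those of NT library 2 ascend (r 0.84). Deviations within a group cancel out by construction, so the panels of a group are not independent.

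Genes that act with integrins and laminins were read from 8 lists of 95 genes in all, of which 94 were in the table and 80 passed the count filter (TGFB1 was not analysed here). Of the 80, 3 were higher and 2 lower by edgeR without the block (3.75% and 2.5%, near the 2.78% and 2.29% of all genes), and 16 and 6 with the replicate block (20% and 7.5%, against 12.1% and 10.9%). Among 10 basement membrane partners tested, COL4A5, a collagen IV chain, was called higher, from 799 ± 59.3 to 1126 ± 11.8 normalized counts (log2 fold change 0.50, edgeR adjusted p = 0.0363). With the block, and by DESeq2, 1 of the 10 was higher (against 12.1% and 4.64% of all genes) and 2 were lower (against 10.9% and 4.41%). Those lower were SPARC, a collagen-binding matrix protein (log2 fold change -1.57, edgeR adjusted p = 0.102, and 0.00468 with the block), and COL4A4, another collagen IV chain (-0.56, 0.0660 and 0.0110), both named here after their values were seen. Among 4 hemidesmosome genes, COL17A1, the transmembrane collagen that binds laminin-332 and the integrin of ITGA6 and ITGB4, had 41.9, 59.2 and 71.2 normalized counts in NT and 142.8, 138.5 and 171 in OXA (log2 fold change 1.39, SE 0.23, edgeR adjusted p = 0.0207). It was the 1 gene of the 4 called (25%, against 2.78% of all genes), and all its OXA libraries were above all its NT libraries. With the block 2 of the 4 were higher (50%, against 12.1% of all genes). The call of COL17A1 was lost without NT library 2 or any 1 OXA library, with edgeR adjusted p between 0.0636 and 0.0910.

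Of 12 non-integrin laminin receptors and enzymes that glycosylate dystroglycan, 1 was called higher (8.33%, against 2.78% of all genes). With the block 4 were higher (33.3%, against 12.1%). The 1 called without the block was SDC4, a syndecan of focal adhesions (3424 ± 239 and 5529 ± 446 normalized counts, log2 fold change 0.69, edgeR adjusted p = 0.0108). FN1, which encodes fibronectin, was the 1 gene called lower among 10 other integrin ligands tested (10%, against 2.29% of all genes). With the block 2 of the 10 were higher and 3 lower (20% and 30%, against 12.1% and 10.9%). FN1 had 2219, 2494 and 2472 normalized counts in NT and 1443, 1472 and 1225 in OXA, without overlap (log2 fold change -0.80, SE 0.11, edgeR adjusted p = 0.00975). Among 16 integrin activators and adaptors, KANK2, a talin-binding protein, was the 1 called lower (6.25%, against 2.29% of all genes). It had 2317 ± 330.1 and 1536 ± 114 normalized counts (log2 fold change -0.59, edgeR adjusted p = 0.0426). With the block 1 of the 16 was higher and 1 lower (6.25% each, against 12.1% and 10.9% of all genes). Left out in turn, single libraries ended the call of FN1 in 1 of 6 fits (without OXA library 1, edgeR adjusted p = 0.0608), of SDC4 in 2 (without OXA library 1 or 3, 0.0723 and 0.0591), and of COL4A5 and KANK2 in all but the fit without NT library 1 (from 0.0837 to 0.161 and from 0.0900 to 0.180).

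The other 3 lists held no call by edgeR without the block. Of 19 focal adhesion genes tested, 3 had an unadjusted p under 0.05 (15.8%, against 21.7% of all genes). DESeq2 called 1 higher (against 4.64% of all genes) and limma-voom 0, and 4 were higher with the block (21.1%, against 12.1%). PXN, which encodes paxillin, had the smallest p of these (log2 fold change 0.42, edgeR adjusted p = 0.1004). Of 6 tetraspanins tested, 2 had an unadjusted p under 0.05 (33.3%, against 21.7%), and DESeq2 and limma-voom each called 1 higher (against 4.64% and 2.73%). CD82 had the smallest p, at 134, 298 and 294 normalized counts in NT and 478, 657 and 587 in OXA (log2 fold change 1.25, SE 0.30, edgeR adjusted p = 0.0575, and 0.00756 with the block). Of 3 proteases that process laminin chains, 1 had an unadjusted p under 0.05 (33.3%, against 21.7%) and DESeq2 and limma-voom called 0. That was BMP1 (log2 fold change 0.50, edgeR adjusted p = 0.215, and 0.0303 with the block).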

How the data were processed

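RNA-seq counts of 3 untreated (NT) and 3 oxaliplatin-treated (OXA) HCT116 libraries were used, grouped by the sample labels. The authors deposited 1 raw count and 1 normalized signal per gene and library. The deposited counts are whole numbers, and were used as they are. The normalized signal deposited by the authors is the count times a factor that differs between genes, and it served only as an alternative. Per the submitters' processing notes, Trimmomatic 0.32, STAR 2.7.5b, RSEM 1.3.3 and DESeq2 2.13 were used with GRCh38. The notes do not assign roles, so the counts may be rounded RSEM estimates. The annotation and strand setting used for counting are not given in the sources used here, so reads of genes that overlap on opposite strands may not be separated. PCR duplicates were not distinguishable.

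The filter on low counts was filterByExpr of edgeR (at least 10 counts, total at least 15) and left 13727 genes. TMM gave 1 factor per library. The groups were tested with the quasi-likelihood test of edgeR 4.0.16 (R 4.3.3), and p-values were adjusted over all these genes after Benjamini and Hochberg. Normalized counts are scaled to the mean library. Standard errors are the estimate over the square root of F. Positions, lengths of canonical transcripts and their GC content were read from GENCODE release 44 (GRCh38), and promoter windows from RefSeq. Only the main edgeR test was tried on simulated counts, which had the same dispersion for every gene and neither pairing nor GC trends. No library repeated another of its group (chi-square per gene 19.2 to 83.1).

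Same-numbered libraries correlated in their deviations (0.547, 0.542 and 0.307, against -0.467 to 0.0904 for other pairs), so the numbers were taken to pair the libraries. Deviations were taken from each group's own mean, so the contrast with other pairs is partly built in. Among genes of highest GC content, libraries 1 were both low and libraries 2 both high, while libraries 3 went opposite ways. Whether this accounts for the correlations was not tested. The numbers come from the titles, which do not say what they stand for. Alternatives were DESeq2 (1.42.0) as a test and as size factors, limma-voom (limma 3.58.1), the authors' factors, no filter, the replicate block, the block with GC content and length trends removed (splines, 5 degrees of freedom), and each library left out.

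The families and gene lists were chosen with earlier results of these data known, and the members within the families by gene symbol alone. 1 gene that the naming rule selects is not reported here and is left out of all counts of members. Full values were given for the chains of laminin-332 and laminin-511 described, the laminin-binding integrins, other members with an adjusted p under 0.05 with or without the block, and the 5 integrins and 5 laminins with most counts per kilobase. From the other lists, at most 5 called genes or the 1 with the smallest p were named.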

Additional observations from a re-analysis of the deposited data

How the results depend on the processing

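The rise of LAMA3 kept its direction and its call under every alternative run. Counts of members called higher (3 in the report) were 5 with the replicate block, 8 with the block and GC content and length trends removed, 6 with those trends removed without the block (chosen after seeing the data) and 1 to 5 with single libraries left out. Members called lower (1) were 0 with the authors' gene-specific factors, 2 by DESeq2, 4 with the replicate block, 5 with block and trends, 3 with trends alone and 0 to 1 with libraries left out. The adhesion lists gave 9 higher by DESeq2, 16 with the block, 30 with block and trends, 18 with trends alone and 0 to 6 with libraries left out, and 1 lower with the authors' factors, 4 by DESeq2, 6 with the block, 13 with both, 8 with trends alone and 0 to 4. Over all genes, 381 higher and 315 lower became 241 and 200 with the authors' factors, 609 and 578 by DESeq2, 1664 and 1493 with the block, 3214 and 3038 with block and trends, 1571 and 1505 with trends alone, and 66 to 623 and 19 to 571 with libraries left out. The log2 fold change of LAMA5 changed sign with block and trends (-0.031), with trends alone (-0.040), without NT library 1 (-0.35) and without OXA library 2 (-0.28), its range with libraries left out being -0.35 to 0.48. That of ITGB1 changed sign without NT library 2 (-0.014) or 3 (-0.021), in a range of -0.021 to 0.17, and that of ITGB5 with the authors' factors (0.0049). The replicate block changed no call of a member other than those given in the report. The cause was not tested. Leaving a library out leaves 2 in its group and fewer degrees of freedom. The 11 members that failed the count filter were not tested in the main fit, and at this depth differences in them were not detectable.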
